A study of Mus musculus with 9 samples.

Results

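The genes described are Trp53, which encodes p53, and 8 of its textbook target genes, Cdkn1a, Mdm2, Ccng1, Trp53inp1, Bax, Bbc3, Phlda3 and Sesn1. They were taken by symbol from the deposited RNA-seq tables, in which each of the 9 symbols belonged to 1 of the 56691 genes in all 9 libraries. The libraries came from BVSC mouse pluripotent stem cells (PSCs), a line that reports Blimp1 through mVenus (BV) and Stella through CFP, differentiated as embryoid bodies (EBs) and sorted into BV+ and BV- cells. Cells labelled NRF1 overexpression (NRF1 OE) carried an Nrf1 cDNA in the doxycycline-inducible p20 vector, and cells labelled Ctrl carried the empty vector. The protocol listed for all samples gives doxycycline at 1.5 μg/mL from day 2 to day 5. The 4 groups were BV+ cells with NRF1 OE (n = 2), BV+ cells with Ctrl (n = 2), BV- cells with NRF1 OE (n = 3) and BV- cells with Ctrl (n = 2). All cells came from a single reporter line, and the study's methods call the replicates biological without naming the cultures behind them. The p-values therefore measure the spread between these libraries, pooled over the 4 groups. The comparisons ask how p53 and its target genes differed with NRF1 OE in each population, and between the populations.

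p53 is a transcription factor that is kept low by the ubiquitin ligase Mdm2 and is stabilised by DNA damage and other stress. Its activity is set largely at the protein level, which RNA-seq does not measure, so target gene mRNAs are the usual readout of it. Its targets arrest the cell cycle (Cdkn1a), feed back on p53 itself (Mdm2, Ccng1, Trp53inp1), trigger mitochondrial apoptosis (Bax, Bbc3), restrain AKT signalling (Phlda3) or dampen growth under stress (Sesn1). Pluripotent cells and early germ cells are sensitive to p53-dependent apoptosis. NRF1 is a transcription factor that binds GC-rich palindromes in promoters, among them those of genes for mitochondrial respiration.

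Total counts per library lay between 13702162 and 19625460, and all 9 genes passed the filter on low counts, with 16903 genes tested. Nrf1 itself, counted over its gene, had 90.4 to 91.1 CPM, counts scaled to library size, in BV+ Ctrl and 95.7 to 99.4 in BV+ NRF1 OE libraries, and its difference did not pass the test in either population (log2 fold change 0.10, adjusted p = 0.489 in BV+ cells and 0.26, adjusted p = 0.0718 in BV- cells, edgeR). The libraries with NRF1 OE stood apart in how counts depended on the GC content of the transcript. Over 14253 genes, Spearman's rho between GC content and a gene's level relative to all libraries was -0.561 to -0.467 in the Ctrl libraries and 0.00674 to 0.666 in the NRF1 OE libraries, with 0.308 and 0.00674 in BV+ cells and 0.0445, 0.666 and 0.531 in BV- cells. The mRNA of the sorting reporter's gene did not separate BV+ from BV- libraries. Prdm1 (Blimp1), the gene of the sorting reporter, lay between 53.3 and 62.8 CPM in BV+ and between 42.4 and 62.0 CPM in BV- libraries. Of 8 germ cell markers, 0 were called higher in BV+ cells at Ctrl or at NRF1 OE. Of all genes, 1.1% and 9.9% were called higher there, so a count of 0 among 8 is near these shares and does not decide on the label. The groups are therefore called BV+ and BV- cells here. In bulk samples, fewer cells of a type and less RNA per cell cannot be told apart.

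Of the 9 genes, 8 had a promoter window in RefSeq (GRCm38.p6, 250 bases before to 50 after a transcription start), 12 windows in all, and Trp53inp1 had no entry. The windows were searched on both strands for motifs of p53 and NRF1. A p53 half-site without mismatch stood in a window of 6 of the 8 genes (Bax, Sesn1, Mdm2, Ccng1, Trp53 and Cdkn1a), against 9.55% of the 27025 genes with a window. A p53 full site, made of 2 adjoining half-sites with at most 1 mismatch, stood in windows of Ccng1 and Cdkn1a, against 0.107% of all genes. The core of the NRF1 site, searched as GCGCANGCG, stood only in the window of Bax among the 8 genes, against 7.03% of all genes. A full site can contain half-sites that are counted above, and the NRF1 core of Bax overlapped no p53 site. Such a match describes letters and does not show binding. The 2 full p53 sites and the NRF1 core are shown with their flanks, 5′ to 3′ on the strand of the gene. They are the 3 places where the windows of these genes hold a p53 full site or an NRF1 core. No motif of NRF1 longer than the core was searched. Capitals mark the match.
Cdkn1a, chr17:29090928-29090947, plus strand: ttcagGAACATGTCTTGACATGTTCagccc
Ccng1, chr11:40755462-40755481, minus strand: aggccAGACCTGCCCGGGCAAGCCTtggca
Bax, chr7:45466954-45466962, minus strand: aggtcgatccGCGCATGCGttcatttagt
The coordinates are those of the matched letters. The site of Cdkn1a began 51 bases before the more upstream of its 2 RefSeq starts, the site of Ccng1 195 bases and the core of Bax 64 bases before theirs. The whole window of Cdkn1a is printed because the gene holds both a full site and a further half-site, at chr17:29090729-29091028 on the plus strand, with the full site in capitals: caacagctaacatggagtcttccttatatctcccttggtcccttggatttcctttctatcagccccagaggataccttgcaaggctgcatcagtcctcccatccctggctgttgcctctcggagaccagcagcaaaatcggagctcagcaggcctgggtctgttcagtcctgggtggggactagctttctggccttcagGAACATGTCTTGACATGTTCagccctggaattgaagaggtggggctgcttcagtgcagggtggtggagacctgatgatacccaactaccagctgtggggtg
The whole window of Bax is printed for its NRF1 core, in capitals, at chr7:45466849-45467148 on the minus strand: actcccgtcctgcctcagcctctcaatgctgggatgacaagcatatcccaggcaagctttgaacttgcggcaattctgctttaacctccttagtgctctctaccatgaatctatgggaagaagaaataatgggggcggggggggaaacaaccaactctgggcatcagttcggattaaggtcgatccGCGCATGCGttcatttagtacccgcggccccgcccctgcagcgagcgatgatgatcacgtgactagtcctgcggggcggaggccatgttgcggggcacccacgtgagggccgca

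Levels were compared between genes by the deposited FPKM, which divide by a length for each gene. The length implied by counts and FPKM was 3554 bases for Cdkn1a and 5083 for Mdm2. Their longest transcripts in the GRCm38 annotation had 2080 and 3145 bases. The orders given here hold for the deposited divisor and could differ with transcript length. Bax was highest, with a mean of 128 FPKM over the 9 libraries (range 99.1 to 181), followed by Trp53 at 88.6 (72.6 to 115), Ccng1 at 51.3 (38.0 to 62.6) and Trp53inp1 at 26.6 (12.1 to 39.6). Phlda3 (17.5 FPKM, range 11.9 to 27.4), Mdm2 (14.7, range 8.39 to 18.8) and Bbc3 (13.8, range 10.2 to 18.8) came next. Cdkn1a had 8.63 FPKM (6.43 to 11.2) and Sesn1 the lowest level, 4.05 (3.15 to 4.90). The order of Bax, Trp53, Ccng1 and Trp53inp1 was the same in 9 of 9 libraries, and so was that of Bbc3, Cdkn1a and Sesn1. Trp53inp1 exceeded Phlda3 in 7 of 9 libraries and Phlda3 exceeded Bbc3 in 9 of 9, while the place of Mdm2 depended on the condition. Mdm2 lay above Phlda3 in all 4 Ctrl libraries (means of 18.6 against 12.8 FPKM in BV+ and 17.8 against 15.1 in BV- cells) and below it in all 5 NRF1 OE libraries (11.7 against 18.7 and 11.9 against 21.6 FPKM). Mdm2 exceeded Bbc3 in 5 of 9 libraries, the 4 Ctrl libraries and BV+ NRF1 OE replicate 2. The apoptosis effector Bax and p53 itself were thus well expressed in both populations, while the arrest gene Cdkn1a had a low level beside them. Raw counts of the 9 genes lay between 172 (Sesn1) and 7406 (Trp53) per library.

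With NRF1 OE, p53 mRNA and the GC-rich targets Bax, Bbc3 and Phlda3 lay higher, and the GC-poor targets Trp53inp1, Ccng1 and Mdm2 lay lower, in both populations. In BV- cells 3 of the 9 genes passed the test, Bax and Bbc3 higher and Trp53inp1 lower, where 17.2% of all genes tested were called (10.2% higher and 6.98% lower). In BV+ cells 0 of the 9 genes passed the edgeR test, where 8.02% of all genes were called (6.24% higher and 1.78% lower). DESeq2 on the same genes and libraries also called 0, while DESeq2 on only the groups compared called 4, beside 10.9% of all genes. An unadjusted p under 0.05 was reached by 4 of the 9, beside 32.5% of all genes. By the threshold of the study, which asks for an absolute log2 fold change above 0.58 at an unadjusted p under 0.05, there were 2 genes in BV+ cells (Mdm2 lower and Phlda3 higher, with 17.0% of all genes past it) and 1 in BV- cells (Trp53inp1 lower, with 16.0% of all genes past it). The median log2 fold change of the 9 genes was 0.21 in BV+ and 0.33 in BV- cells, beside 0.04 and 0.01 over all genes tested. Groups this small often do not overlap. The Ctrl and NRF1 OE libraries stood apart for 8 of the 9 genes in each population, beside 70.1% of all genes in BV+ and 57.0% in BV- cells. These shares are read beside the GC content of the genes, which is described after the single genes. Taking out its trend turned the directions of Bax and Bbc3 in BV+ cells and of Ccng1 in both populations.

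**Figure D1:**
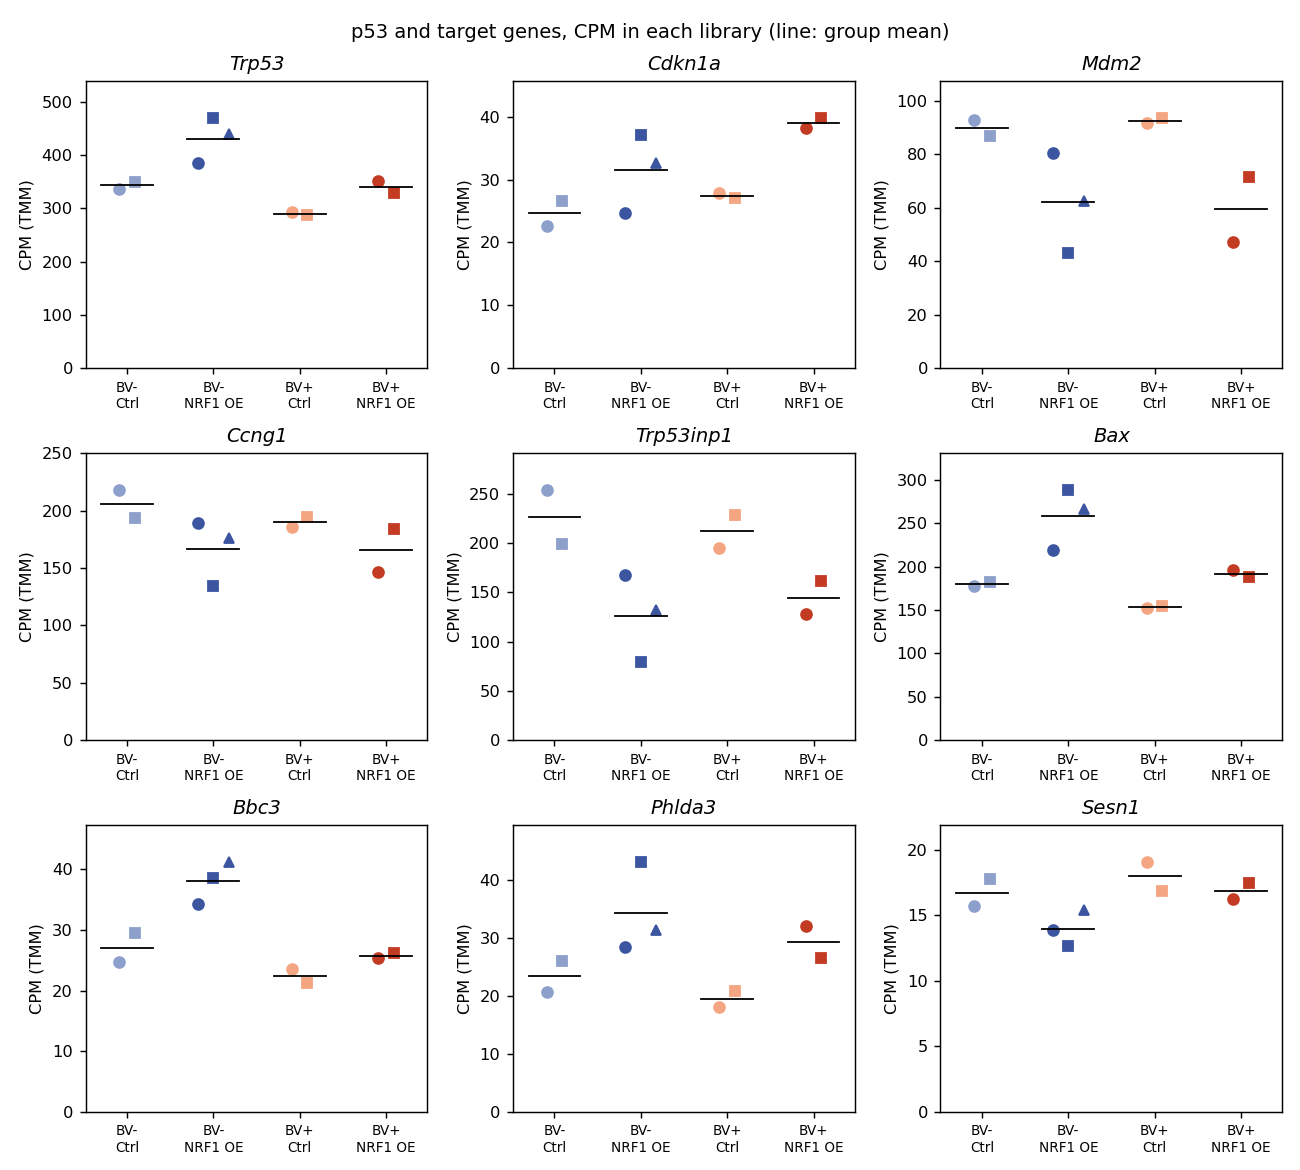
TMM-scaled CPM (vertical axis, from 0) of p53 and its 8 target genes in each of the 9 libraries, by group (circle, square and triangle: replicates 1, 2 and 3; line: group mean). Bax and Bbc3 reach 288 and 41.2 CPM in BV- cells with NRF1 OE, and Trp53inp1 falls to 79.0 CPM in one of those libraries.

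Trp53, the gene of p53, had 337 and 350 CPM in BV- Ctrl libraries and 384, 469 and 439 CPM in BV- NRF1 OE libraries. In BV+ cells it had 292 and 287 CPM at Ctrl and 351 and 329 CPM with NRF1 OE. The NRF1 OE libraries lay above the Ctrl libraries in each population without overlap. The log2 fold change was 0.33 ± 0.10 (SE) in BV- cells (edgeR, adjusted p = 0.0506) and 0.23 ± 0.11 in BV+ cells (adjusted p = 0.175), so neither passed. A processed pseudogene, Trp53-ps, which is counted on its own at 6.50 to 16.4 CPM, could share reads with Trp53.

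Cdkn1a encodes p21, the inhibitor of cyclin-dependent kinases through which p53 arrests the cell cycle. BV+ Ctrl libraries had 27.9 and 27.1 CPM and BV+ NRF1 OE libraries 38.2 and 39.7 CPM, which did not overlap. BV- Ctrl libraries had 22.6 and 26.6 CPM, and BV- NRF1 OE libraries 24.7, 37.1 and 32.7 CPM, the first of which lay between the Ctrl values. The log2 fold change was 0.51 ± 0.18 (SE) in BV+ cells (edgeR, adjusted p = 0.0857) and 0.35 ± 0.16 in BV- cells (adjusted p = 0.134). An antisense transcript of uncertain status covers 7.68% of its exon bases in the GRCm38 annotation, and whether the counting used the strand is not stated.

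Mdm2, the ubiquitin ligase that degrades p53 and is itself induced by it, was at 91.6 and 93.4 CPM in BV+ Ctrl and at 93.0 and 86.8 CPM in BV- Ctrl libraries. With NRF1 OE it was at 47.4 and 71.4 CPM in BV+ cells and at 80.4, 43.0 and 62.5 CPM in BV- cells. All 5 NRF1 OE libraries lay below all 4 Ctrl libraries, and they differed widely among themselves. The lowest Mdm2 values stood in the replicates with the highest GC correlation of their group, BV+ NRF1 OE replicate 1 and BV- NRF1 OE replicate 2. The log2 fold change was -0.64 ± 0.25 (SE) in BV+ cells (edgeR, adjusted p = 0.108) and -0.53 ± 0.22 in BV- cells (adjusted p = 0.102). Without BV+ NRF1 OE replicate 1 the value in BV+ cells was -0.37, and without BV+ NRF1 OE replicate 2 it was -0.96 (adjusted p = 0.556 and 0.0566).

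Ccng1, cyclin G1, recruits a phosphatase to Mdm2. It had 186 and 195 CPM in BV+ Ctrl and 146 and 184 CPM in BV+ NRF1 OE libraries. The BV- Ctrl libraries had 218 and 194 CPM and those with NRF1 OE 190, 135 and 176 CPM. The groups did not overlap, but in each population the highest NRF1 OE library lay close under the lowest Ctrl library. Neither log2 fold change passed, at -0.20 ± 0.16 (SE, edgeR adjusted p = 0.395) in BV+ cells and -0.30 ± 0.15 (adjusted p = 0.152) in BV- cells.

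Trp53inp1 encodes a stress protein that promotes p53 phosphorylation and autophagy. It gave the largest of these differences. BV- Ctrl libraries had 254 and 199 CPM, and BV- NRF1 OE libraries 168, 79.0 and 132 CPM. BV+ Ctrl libraries had 195 and 229 CPM, and BV+ NRF1 OE libraries 128 and 161 CPM. The gene fell in BV- cells with NRF1 OE by 0.84 ± 0.24 (SE) on the log2 scale (edgeR, adjusted p = 0.0411), and its log2 fold change in BV+ cells was -0.55 ± 0.27 (adjusted p = 0.175). BV- NRF1 OE replicate 2 lay far below the other two replicates, and without it the log2 fold change was -0.62 (adjusted p = 0.0123). The call in BV- cells held in 4 of 9 fits with 1 library left out and in 10 of 19 alternatives (edgeR or DESeq2, adjusted p up to 0.319). With the trend over GC content and length taken out, the log2 fold change there was -0.28.

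Bax, the BCL2-family protein that opens the outer mitochondrial membrane in apoptosis, had 177 and 182 CPM in BV- Ctrl and 219, 288 and 267 CPM in BV- NRF1 OE libraries. In BV+ cells the values were 153 and 155 CPM at Ctrl and 196 and 188 CPM with NRF1 OE. The groups stood apart in both populations. Bax rose in BV- cells by 0.52 ± 0.12 (SE, log2 fold change, edgeR adjusted p = 0.0317), and its log2 fold change in BV+ cells was 0.32 ± 0.13 (adjusted p = 0.119). A predicted protein-coding gene on the same strand shares 12.2% of its exon bases, so its counts are uncertain to that extent.

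Bbc3 encodes PUMA, the BH3-only protein that binds BCL2-family members and sets off Bax. It had 24.6 and 29.6 CPM in BV- Ctrl and 34.4, 38.6 and 41.2 CPM in BV- NRF1 OE libraries. In BV+ cells it had 23.5 and 21.2 CPM at Ctrl and 25.3 and 26.2 CPM with NRF1 OE. The rise in BV- cells was 0.49 ± 0.13 (SE, log2 fold change, edgeR adjusted p = 0.0377), while the log2 fold change in BV+ cells was 0.21 ± 0.15 (adjusted p = 0.332). Bax and Bbc3 were thus called in BV- cells alone, but the difference between populations is tested further on and did not pass.

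Phlda3 encodes a pleckstrin-homology protein that competes with AKT for membrane lipids. BV+ Ctrl libraries had 18.2 and 20.9 CPM and BV+ NRF1 OE libraries 32.0 and 26.6 CPM. BV- Ctrl libraries had 20.7 and 26.0 CPM and those with NRF1 OE 28.4, 43.1 and 31.4 CPM. Its groups did not overlap in either population, yet the log2 fold changes, 0.585 ± 0.20 (SE) in BV+ cells and 0.55 ± 0.19 in BV- cells, did not pass after adjustment (edgeR, adjusted p = 0.0868 and 0.0603). Sesn1, the stress protein sestrin 1, had 19.1 and 16.9 CPM in BV+ Ctrl, 16.2 and 17.5 CPM in BV+ NRF1 OE, 15.7 and 17.8 CPM in BV- Ctrl and 13.9, 12.7 and 15.4 CPM in BV- NRF1 OE libraries. Sesn1 changed least, with log2 fold changes of -0.09 ± 0.15 (SE, edgeR adjusted p = 0.687) in BV+ cells and -0.26 ± 0.14 (adjusted p = 0.188) in BV- cells.

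The direction of these differences went with the GC content of the transcripts. The longest transcripts of Phlda3, Bax and Bbc3 had 62.6%, 63.5% and 65.2% GC, above at least 98.7% of the genes tested, and all lay higher with NRF1 OE. Cdkn1a (54.4%) and Trp53 (53.3%) stood above the middle and also lay higher. Sesn1, at 49.8% GC, stood at percentile 50.3 and moved least in BV+ cells. In BV- cells Sesn1 also lay lower, although the trend over GC content and length gave 0.007 for it there. Its log2 fold change was -0.27 with that trend taken out. Mdm2 (46.2%), Ccng1 (40.8%) and Trp53inp1 (38.8%, percentile 3.76) stood below and lay lower. Over all genes tested, the median log2 fold change with NRF1 OE was -0.26, 0.03 and 0.30 for genes of low, middle and high GC content (3 classes of 5554 genes each) in BV+ cells, and -0.40, 0.01 and 0.34 in BV- cells. Trends fitted over GC content and transcript length in all genes gave, for the NRF1 OE minus Ctrl log2 level in BV- cells, 0.48 for Bax, 0.44 for Bbc3 and -0.61 for Trp53inp1. For Mdm2 they gave -0.13 in BV+ and -0.19 in BV- cells, less than its differences above. In BV+ cells they gave 0.52 for Bax and 0.50 for Bbc3, more than the differences of these genes. Whether the GC trend arose in the cells or in library preparation was not tested.

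When offsets took out the trend of each library over GC content and length, 0 of the 9 genes were called with NRF1 OE in either population by edgeR, where 12.6% of all genes were called in BV+ and 6.36% in BV- cells, and none passed the study's threshold, which 13.1% and 7.02% of all genes passed. In BV- cells Bax went to 0.03 ± 0.08 (SE, log2 fold change, adjusted p = 0.846), Bbc3 to 0.05 ± 0.12 (adjusted p = 0.836) and Trp53inp1 to -0.28 ± 0.11 (adjusted p = 0.127). Phlda3 went to 0.08 in BV+ and 0.07 in BV- cells, and Trp53 to 0.03 and 0.10. In BV+ cells the signs of Bax (-0.20 ± 0.09), Bbc3 (-0.29 ± 0.14) and Ccng1 (0.07 ± 0.09) turned, as did that of Ccng1 in BV- cells (0.13 ± 0.08). Mdm2 kept most of its difference, with a log2 fold change of -0.52 ± 0.18 in BV+ cells (adjusted p = 0.0738) and -0.36 ± 0.16 in BV- cells (adjusted p = 0.181). Cdkn1a went to 0.23 ± 0.12 in BV+ cells (adjusted p = 0.224) and to 0.03 ± 0.12 in BV- cells.

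**Figure D2:**
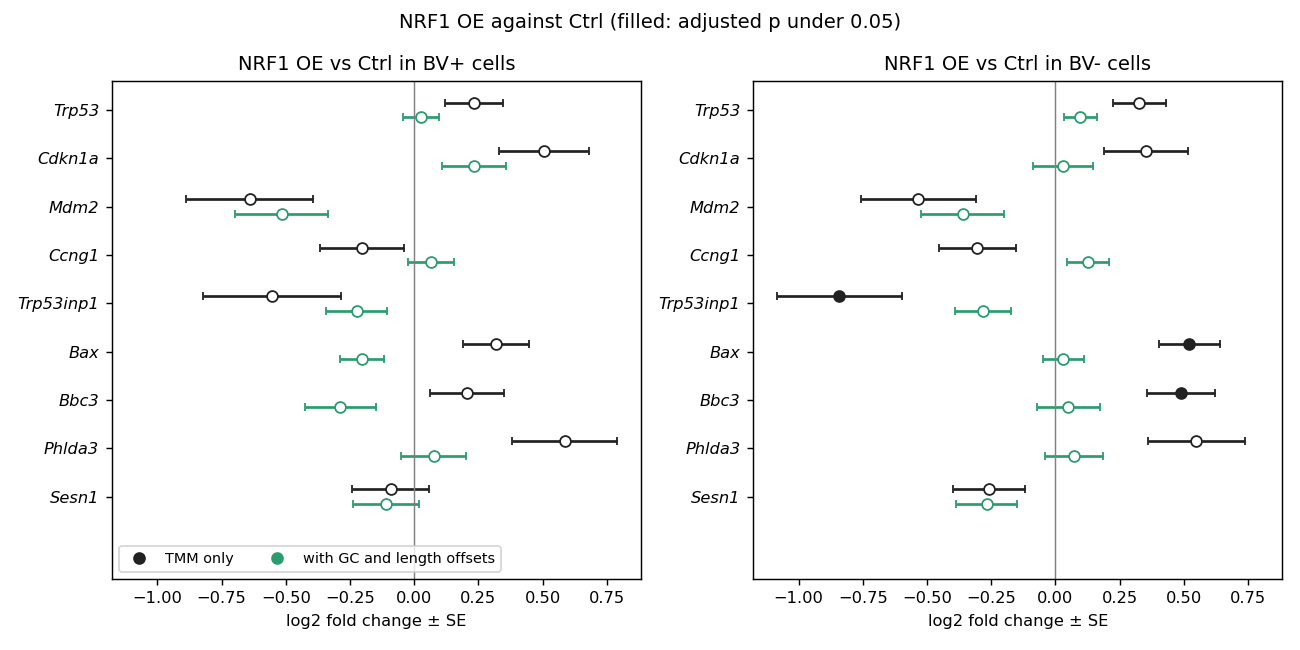
Log2 fold change (horizontal axis) ± SE with NRF1 OE for p53 and its 8 targets in BV+ (left) and BV- cells (right), with TMM scaling alone (black) and with offsets for GC content and length (green); filled points have an adjusted p under 0.05. The 3 filled points, Trp53inp1, Bax and Bbc3 in BV- cells, are open with the offsets. Mdm2, Trp53inp1 and Sesn1 lie below 0 in all 4 fits.

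The calls in BV- cells also depended on which libraries were fitted, as did those of all genes. They were kept without BV- NRF1 OE replicate 2, the library with the strongest GC correlation, with adjusted p of 0.022 for Bax and 0.0385 for Bbc3 (edgeR). Without BV- NRF1 OE replicate 3, BV- Ctrl replicate 1, BV- Ctrl replicate 2, BV+ Ctrl replicate 1 or BV+ Ctrl replicate 2, 0 of the 9 genes were called. For Bax the adjusted p was then 0.0659, 0.311, 0.117, 0.0637 and 0.0645, with log2 fold changes of 0.50 to 0.53. Over all genes, these 5 fits called 35, 0, 1, 0 and 0, so the calls were lost for nearly all genes alike. Without BV- NRF1 OE replicate 1, 7 genes were called (34.6% of all genes), Trp53, Cdkn1a, Mdm2 and Phlda3 being added. In BV+ cells, 2 genes were called without BV- NRF1 OE replicate 1 (14.0% of all genes) and 5 without BV- NRF1 OE replicate 2 (29.4% of all genes), although neither library belongs to the groups compared. When only the groups compared were fitted, 4 genes were called in BV+ cells (Cdkn1a, Mdm2, Phlda3 and Trp53inp1, beside 26.8% of all genes) and 0 in BV- cells, where 0 of 15840 genes were called in all.

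The 2 populations were compared next. At Ctrl, 0 of the 9 genes were called between BV+ and BV- cells, where 1.12% of all genes were called by adjusted p and 5.74% passed the study's threshold. The populations did not overlap for Trp53, Cdkn1a, Bax and Bbc3, 4 of the 9, beside 48% of all genes. Also at an unadjusted p under 0.05 there were 0 of the 9, beside 7.77% of all genes, and DESeq2 on the same genes and libraries called 0. Trp53 came closest, with 292 and 287 CPM in BV+ against 337 and 350 CPM in BV- libraries and a log2 fold change of -0.25 ± 0.11 (SE, edgeR, unadjusted p = 0.0501, adjusted p = 0.643). The chi-square per gene between replicates, larger where they differ more, was 2.99 and 6.59 within the Ctrl groups. Within the NRF1 OE groups it was 12.3 to 34.7. The main fit pools these groups, so its test at Ctrl also carries the spread of the NRF1 OE libraries. A fit of the 4 Ctrl libraries alone called Trp53 (-0.24 ± 0.06, adjusted p = 0.0332), beside 5.52% of all genes. The remaining log2 fold changes at Ctrl lay between -0.28 (Bbc3) and 0.16 (Cdkn1a).

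With NRF1 OE, p53 mRNA and its apoptotic targets Bax and Bbc3 were lower in BV+ than in BV- cells, 3 of the 9 genes, where 13.8% of all genes were called (3.85% lower and 9.90% higher). Trp53 had 351 and 329 CPM in BV+ and 384, 469 and 439 CPM in BV- libraries, a log2 fold change of -0.34 ± 0.10 (SE, edgeR, adjusted p = 0.0497). For Bax the libraries read 196 and 188 against 219, 288 and 267 CPM (-0.43 ± 0.12, adjusted p = 0.0342). For Bbc3 they read 25.3 and 26.2 against 34.4, 38.6 and 41.2 CPM (-0.56 ± 0.13, adjusted p = 0.0164). The populations did not overlap for these 3 genes, nor for Cdkn1a and Sesn1, 5 of the 9, beside 39.9% of all genes. Cdkn1a went the other way, with 38.2 and 39.7 CPM in BV+ against 24.7, 37.1 and 32.7 CPM in BV- libraries (0.31 ± 0.16, adjusted p = 0.233). None of the 9 genes passed the study's threshold here, which 14.7% of all genes passed.

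Unlike the NRF1 OE comparisons, this one kept its calls with the GC and length offsets, under which 4 genes were called by edgeR, beside 27.9% of all genes, whose median log2 fold change was then -0.10. The fitted trends here were only 0.007 for Trp53, -0.005 for Bax and 0.06 for Bbc3. The offsets thus had little to remove for these genes, and the kept calls are no test of a GC trend. Trp53 then had a log2 fold change of -0.35 ± 0.06 (SE, adjusted p = 0.00172), Bax -0.41 ± 0.08 (adjusted p = 0.0023), Bbc3 -0.62 ± 0.13 (adjusted p = 0.00326) and Cdkn1a 0.37 ± 0.11 (adjusted p = 0.0285). The calls without offsets were lost when single libraries were left out. For Bbc3 the adjusted p was 0.126, 0.0658 and 0.0819 without BV+ NRF1 OE replicate 1, BV+ NRF1 OE replicate 2 and BV- NRF1 OE replicate 3, and 0 of the 9 genes were called in those 3 fits, which called 4.46%, 9.87% and 8.97% of all genes. Without any 1 of the 4 Ctrl libraries Bbc3 alone was called, beside 9.58% to 10.3% of all genes. Without BV- NRF1 OE replicate 2 Bbc3 and Cdkn1a were called, beside 14.8% of all genes, while the adjusted p of Trp53 was 0.131 and of Bax 0.0676. Without BV- NRF1 OE replicate 1 all of Trp53, Bax and Bbc3 were called, beside 18.8% of all genes. Over all 19 alternatives, Trp53 was called in 5 (adjusted p up to 0.244), Bax in 8 (up to 0.163) and Bbc3 in 14 (up to 0.126), and the Trp53 call was also lost with DESeq2 size factors, library size alone and upper-quartile factors (adjusted p = 0.055, 0.0683 and 0.0504). The direction of Trp53, Bax and Bbc3 was the same in all 19, with log2 fold changes of -0.42 to -0.24, -0.54 to -0.31 and -0.63 to -0.49.

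**Figure D3:**
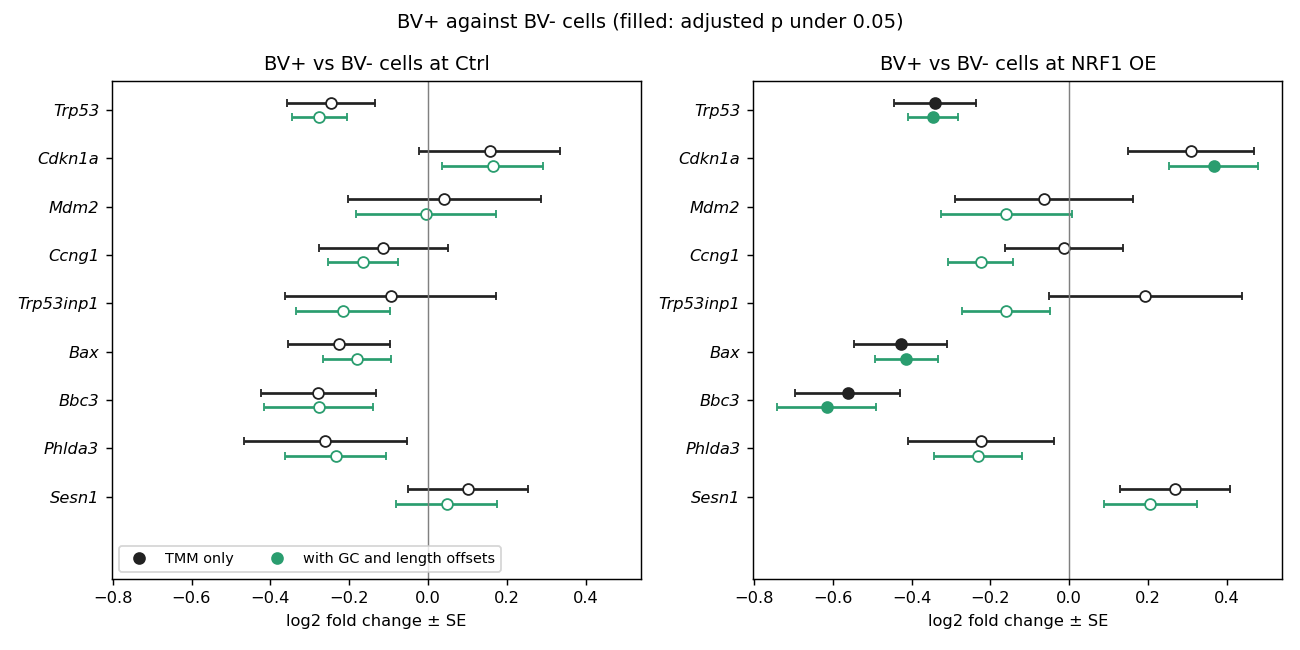
Log2 fold change (horizontal axis) ± SE of BV+ against BV- cells for p53 and its 8 targets at Ctrl (left) and with NRF1 OE (right), with TMM scaling alone (black) and with offsets for GC content and length (green); filled points have an adjusted p under 0.05. With NRF1 OE, Trp53, Bax and Bbc3 lie below 0 and are filled in both fits, and Cdkn1a is filled at 0.37 with the offsets.

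Markers of other cells moved with the same comparison. The summed level of 4 fibroblast and mesenchyme markers (Col1a1, Col1a2, Thy1 and Pdgfrb) was 446 to 700 CPM in BV+ and 19.8 to 26.2 CPM in BV- libraries with NRF1 OE, and 125 to 129 against 14.1 to 20.6 CPM at Ctrl. With NRF1 OE, 3 of the 4 were called higher in BV+ cells. Col1a2 alone had 368 to 602 CPM in BV+ and 9.95 to 17.1 CPM in BV- libraries there. Thy1 had a lower mean in BV+ than in BV- libraries (2.95 against 4.32 CPM). The 8 germ cell markers summed to 1190 to 1270 CPM in BV+ and 1640 to 1780 CPM in BV- libraries with NRF1 OE, where 4 of the 8 were called lower in BV+ cells. These sums were mostly Pou5f1, which had 841 to 905 CPM in BV+ and 1110 to 1340 CPM in BV- libraries. The means of Prdm1 were 54.9 and 54.8 CPM. Of all genes, 9.90% were called higher and 3.85% lower in this comparison. No marker of either list was at 0 in all libraries of a group. Of the other marker lists, 2 of 3 neuroectoderm and 1 of 3 tested mesoderm markers were called higher, 3 of 7 endoderm markers lower, and of 5 naive pluripotency markers 1 higher and 1 lower in BV+ cells with NRF1 OE. NRF1 OE itself came with calls in these lists too, beside 17.2% of all genes in BV- and 8.02% in BV+ cells. In BV- cells 4 of 8 germ cell markers were higher, 1 of 7 endoderm markers was lower, and of 5 naive pluripotency markers 1 was higher and 3 lower. In BV+ cells 3 of 4 mesenchyme, 1 of 8 germ cell, 1 of 3 neuroectoderm and 1 of 3 tested mesoderm markers were higher and 2 of 5 naive pluripotency markers lower. The part of a different mix of cells in the levels of Trp53, Bax, Bbc3 and Cdkn1a was not tested.

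Whether NRF1 OE acted unequally in the 2 populations was tested as an interaction, which passed for 0 of the 9 genes by edgeR, as it did for 0% of all genes by adjusted p (932 genes had an unadjusted p under 0.05, of which 0 were among the 9, and DESeq2 on the same genes and libraries called 23, also none of the 9). The study's threshold was passed by 4.48% of all genes and by none of the 9. The differences on the log2 scale were -0.28 ± 0.20 (SE) for Bbc3, -0.20 ± 0.17 for Bax, -0.09 ± 0.15 for Trp53, 0.15 ± 0.24 for Cdkn1a and 0.29 ± 0.36 for Trp53inp1. Their errors leave room for effects of the size of those seen within a population. A call for Bax, Bbc3 and Trp53inp1 in BV- cells and not in BV+ cells therefore does not show that the populations responded differently.

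The wider pathway was followed in 3 lists, 21 regulators of p53, 37 other target genes and 12 cell cycle genes that are repressed through p21 and the DREAM complex. Of the regulators, 1 of 21 was called lower with NRF1 OE in BV+ cells and 1 higher and 2 lower in BV- cells, with medians of -0.17 and -0.08 (log2), beside the 8.02% and 17.2% of all genes called. Mdm4, the partner of Mdm2 that blocks the p53 activation domain, fell in both populations. It had 147 and 170 CPM at Ctrl and 72.1 and 85.8 CPM with NRF1 OE in BV+ cells, and 178 and 126 CPM against 101, 48.4 and 81.0 CPM in BV- cells. The log2 fold changes were -1.01 ± 0.27 (SE, edgeR, adjusted p = 0.0467) and -0.98 ± 0.24 (adjusted p = 0.0338). With 43.3% GC, Mdm4 was still called with the offsets, at -0.74 (adjusted p = 0.00943) and -0.50 (adjusted p = 0.0415), but it was called in only 11 of 19 alternatives in each population. Atm, the kinase that signals DNA breaks to p53, fell in BV- cells (-0.95 ± 0.24, adjusted p = 0.0351, and -0.39 with the offsets, adjusted p = 0.0478), called in 11 of 19 alternatives with adjusted p up to 0.311. Rpl11, the ribosomal protein that restrains Mdm2, rose there (0.51 ± 0.12, adjusted p = 0.0317), but not with the offsets (0.20, adjusted p = 0.177), and was called in 10 of 19 alternatives.

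Of the other target genes, 36 of 37 were tested, since Fas, the death receptor, was too low. In BV+ cells with NRF1 OE 4 were called higher and 0 lower (median -0.02), and in BV- cells 4 higher and 3 lower (median 0.13), shares near the 8.02% and 17.2% of all genes. In BV+ cells Btg2, an antiproliferative co-regulator of mRNA decay, rose from 37.3 and 39.4 to 63.4 and 58.4 CPM (0.67 ± 0.13, log2 fold change ± SE, edgeR adjusted p = 0.0208, and 0.62 with the offsets, adjusted p = 0.00641). Tap1, a peptide transporter of antigen presentation, rose at a low level (1.28 ± 0.35, adjusted p = 0.0477), and Dcxr, a carbonyl reductase, rose in BV+ (0.78 ± 0.20, adjusted p = 0.0417) and in BV- cells (0.81 ± 0.19, adjusted p = 0.0317). With the offsets neither was called. Tap1 stayed at 0.99 in BV+ cells (adjusted p = 0.0667), while Dcxr went to 0.31 in BV+ (adjusted p = 0.31) and 0.33 in BV- cells (adjusted p = 0.283). Of 19 alternatives, Btg2 was called in 15 (adjusted p up to 0.226), Tap1 in 8 (up to 0.388) and Dcxr in 9 in BV+ (up to 0.369) and 10 in BV- cells (up to 0.495). Ak1, an adenylate kinase, rose in BV- cells (0.61 ± 0.15, adjusted p = 0.0337) and was called in 10 of 19 alternatives. With the offsets it went to 0.29 and was not called (adjusted p = 0.0895).

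Pmaip1, which encodes NOXA, a BH3-only protein like the product of Bbc3, went against Bbc3. It had 48.2 and 47.0 CPM in BV+ and 15.4, 12.4 and 15.5 CPM in BV- libraries with NRF1 OE, and 48.0 and 54.0 against 23.8 and 27.1 CPM at Ctrl. Thus it was higher in BV+ cells at Ctrl (1.00 ± 0.15, log2 fold change ± SE, edgeR adjusted p = 0.00667) and with NRF1 OE (1.72 ± 0.13, adjusted p = 1.01e-05), where Bbc3 was lower. With NRF1 OE this was called in all 19 alternatives. At Ctrl it was called in 18 of 21, and not without BV+ Ctrl replicate 2, BV- Ctrl replicate 1 or BV- Ctrl replicate 2. In BV- cells Pmaip1 fell with NRF1 OE (-0.82 ± 0.14, adjusted p = 0.0317), while Bax and Bbc3 rose. With the offsets Pmaip1 was at -0.47 (adjusted p = 0.0374), while Bax (0.03) and Bbc3 (0.05) were no longer called. The call of Pmaip1 held in 11 of 19 alternatives, with adjusted p up to 0.311. Of the 36 targets, 5 were called higher and 5 lower in BV+ than in BV- cells with NRF1 OE (median -0.14), beside 9.90% and 3.85% of all genes, among them higher Perp, a desmosomal and apoptotic membrane protein (1.23 ± 0.25, adjusted p = 0.00707), and Trp53i11 (0.98 ± 0.26, adjusted p = 0.0271), called in 18 and 14 of 19 alternatives. Among the regulators, Trp73, a p53 family member, was lower there at 4.69 to 9.50 CPM (-0.68 ± 0.21, adjusted p = 0.0484), called in 8 of 19 alternatives with adjusted p up to 0.295.

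Of the cell cycle genes below p21, 0 of 12 were called lower with NRF1 OE in either population, where 1.78% of all genes in BV+ and 6.98% in BV- cells were called lower. In BV+ cells 0 of 12 were called in either direction (edgeR, 0 at an unadjusted p under 0.05, median 0.01, and 0 by DESeq2 on the same genes and libraries). In BV- cells 2 of 12 rose, where 10.2% of all genes were called higher, E2f1, a transcription factor of S phase genes (0.55 ± 0.12, log2 fold change ± SE, adjusted p = 0.0317), and Mybl2, which encodes the transcription factor B-Myb (0.37 ± 0.10, adjusted p = 0.0379). Both lost the call with the offsets, under which Mybl2 was called lower in BV+ cells (-0.35, adjusted p = 0.0142). Between the populations with NRF1 OE, the same 2 genes of 12 were lower in BV+ cells, also with the offsets, where 3.85% of all genes were called lower without them. The values were -0.43 ± 0.12 for E2f1 (adjusted p = 0.0292) and -0.49 ± 0.10 for Mybl2 (adjusted p = 0.00787). Of 19 alternatives, the rises in BV- cells were called in 10 for E2f1 (adjusted p up to 0.396) and 8 for Mybl2 (up to 0.846), and the differences between populations in 9 for E2f1 (up to 0.156) and 15 for Mybl2 (up to 0.0696). Cdkn1a had a positive value between the populations with NRF1 OE, which did not pass with TMM scaling alone. A relation of Cdkn1a to E2f1 and Mybl2 was not tested.

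**Figure D4:**
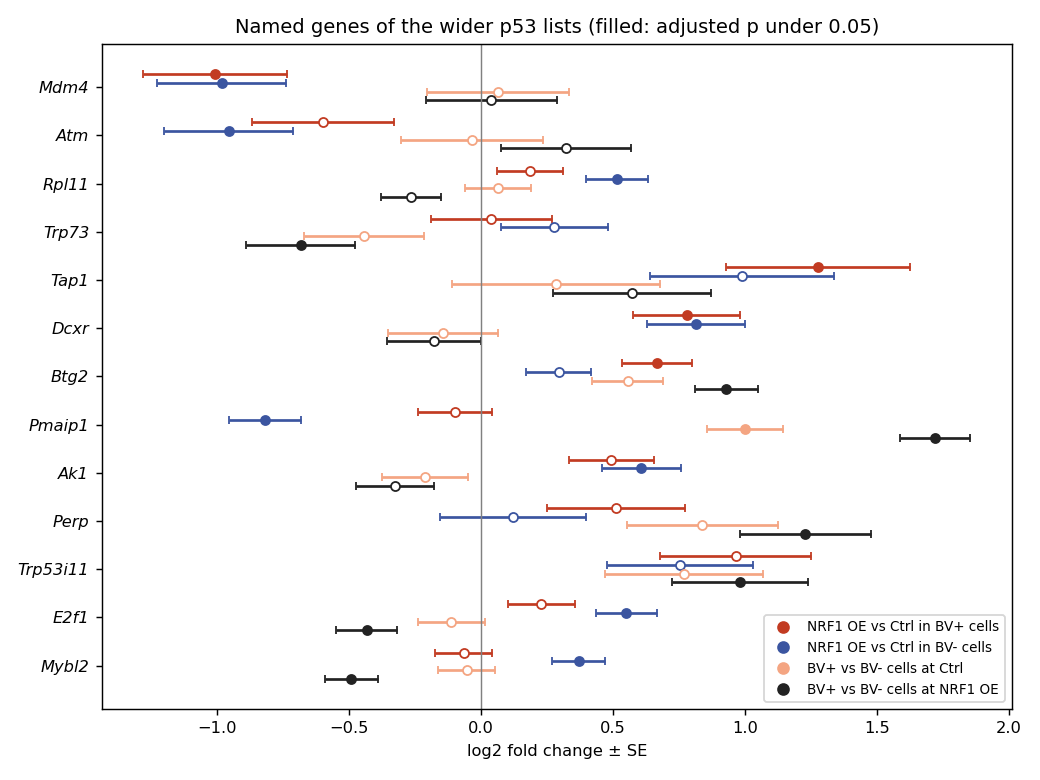
Log2 fold change (horizontal axis) ± SE of the named genes of the wider p53 lists in 4 comparisons (colours); filled points have an adjusted p under 0.05. Pmaip1 lies at 1.72 for BV+ against BV- cells with NRF1 OE and at -0.82 for NRF1 OE in BV- cells, and Mdm4 lies near -1 for NRF1 OE in both populations.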

How the data were processed

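RNA-seq of BV+ and BV- cells with NRF1 OE or Ctrl was analysed from the gene tables of 9 libraries. Per the labels, reads were mapped to GRCm39 with HISAT2 2.0.1 and counted with HTSeq 0.6.1. The authors deposited unnormalized counts for each gene and FPKM made from them, which were used here only to order levels between genes. Whether the counting used strand is not given in the sources used here. GC content, transcript length, overlapping genes and promoter windows came from GRCm38 annotations, so no GRCm39 coordinates are given, and 16662 of 16903 genes tested had a GC value.

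Counts were tested with edgeR 4.0.16 in R 4.3.3 by the quasi-likelihood F test, two-sided, with all 9 libraries and all 4 groups fitted together, TMM factors, the filterByExpr filter and Benjamini-Hochberg adjustment over the 16903 genes. CPM are TMM-scaled, log2 CPM used a prior count of 2, and errors of log2 fold changes are standard errors. A call is an adjusted p under 0.05. The study itself required an absolute log2 fold change above 0.58 and an unadjusted p under 0.05. The alternatives comprised DESeq2 1.42.0 (with the same genes, or the groups compared and no filter), other scaling factors, no filter, a fit of only the groups compared, the replicate number as a block, offsets that take out the GC content and length trend of every library (fitted on genes of at least 1 CPM), and each library left out. A crossed block at Ctrl was added after seeing the data. The procedures were tested on simulated data, and figures were drawn with matplotlib 3.10.9.

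All 9 genes were described in every comparison. Of each wider list and comparison, up to 3 called genes with the largest absolute log2 fold change and a mean of at least 1 CPM were named, and for Trp53 and Cdkn1a the 3 genes with the most similar levels. The genes, lists and marker lists (germ cell, naive pluripotency, mesoderm, endoderm, neuroectoderm, mesenchyme) were chosen with earlier results of these data known.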

Additional observations from a re-analysis of the deposited data

How the results depend on the processing

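All 9 genes passed the filter on low counts, and groups held 2 or 3 libraries. Calls over all genes moved with the settings too. With NRF1 OE in BV+ cells, where 8.02% of all genes were called, the share was 12.5% by DESeq2 on the same genes, 10.9% by DESeq2 on the groups compared, 5.94% with library size alone, 10.4% without a filter, 26.8% with only the groups compared, 0.0177% with the replicate block, 12.6% with the GC and length offsets, 5.77% with both, and 0 to 29.4% with 1 library left out. In BV- cells, against 17.2%, it was 23.8% by DESeq2 on the same genes, 13.3% without a filter, 0% with only the groups compared, 0% with the block, 6.36% with the offsets, 0.0120% with both, and 0 to 34.6% with 1 library left out, so a count of 0 in the fits at 0% says nothing particular to these genes. Between the populations at Ctrl, against 1.12%, it was 1.46% by DESeq2 on the groups compared, 1.60% without a filter, 5.52% with only those groups, 1.70% with the offsets, and 0.175% to 2.87% with 1 library left out. With NRF1 OE, against 13.8%, it was 4.29% by DESeq2 on the groups compared, 7.80% with only those groups, 6.29% with the block, 27.9% with the offsets, and 4.46% to 18.8% with 1 library left out. The counts that follow are read beside these shares. For NRF1 OE in BV+ cells, where 0 of 9 genes were called, 4 were called by DESeq2 on the groups compared, 3 without a filter, 4 with only the groups compared, and 0 to 5 with 1 library left out. The 2 genes past the study's threshold became 1 without a filter, 0 with the GC and length offsets, 0 with the offsets and the block, and 0 to 2 with 1 library left out. In BV- cells the 3 calls became 6 by DESeq2 on the same genes, 6 without a filter, 0 with only the groups compared, 0 with the replicate block, 0 with the offsets, 0 with the offsets and the block, and 0 to 7 with 1 library left out. The 1 gene past the study's threshold became 2 with the replicate block, 0 with the offsets, 0 with both, and 0 to 4 with 1 library left out. Between the populations at Ctrl, 0 calls became 1 by DESeq2 on the groups compared and 1 with only those groups. With NRF1 OE, the 3 calls became 1 by DESeq2 on the groups compared, 0 with only the groups compared, 0 with the replicate block, and 0 to 3 with 1 library left out, and the 0 past the study's threshold became 1 with upper-quartile factors, 1 with the offsets, and 0 to 1 with 1 library left out. The cause of these moves was not tested.

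The 3 wider lists together had 5 calls in BV+ cells, which became 9 by DESeq2 on the same genes, 14 by DESeq2 on the groups compared, 2 with library size alone, 15 without a filter, 17 with only the groups compared, 0 with the replicate block, 3 with the offsets and the block, and 0 to 19 with 1 library left out. The 12 calls in BV- cells became 20 by DESeq2 on the same genes, 22 without a filter, 0 with only the groups compared, 0 with the replicate block, 4 with the offsets, 0 with both, and 0 to 27 with 1 library left out. Between the populations at Ctrl, 1 call became 3 by DESeq2 on the groups compared, 3 without a filter, 3 with only those groups, 2 with the offsets, and 0 to 3 with 1 library left out. With NRF1 OE, 13 calls became 6 by DESeq2 on the groups compared, 3 with only the groups compared, 4 with the replicate block, 25 with the offsets, and 2 to 18 with 1 library left out.

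Same-numbered libraries correlated between -0.295 and 0.243 in their deviations from the group means, with no common sign. In a group of 2 libraries the deviations mirror each other, so these values cannot decide how the samples pair. With the numbers of the BV- Ctrl libraries crossed, 2 of the 9 genes and 10 of the wider lists were called at Ctrl, against 0 and 3 with the block as numbered, beside 12.9% and 5.11% of all genes. Of 864 values of the 9 genes under the alternatives, 731 kept their sign and side of the threshold, 35 gained and 57 lost a call, and 41 changed sign. With the GC and length offsets the sign turned for Bax (-0.20) and Bbc3 (-0.29) in BV+ cells with NRF1 OE, Ccng1 (0.066 in BV+, 0.13 in BV- cells and -0.059 for the difference of effects), Mdm2 at Ctrl (-0.0044) and Trp53inp1 between populations with NRF1 OE (-0.16). With the offsets and the block the values were -0.20 for Bax, -0.29 for Bbc3, 0.064, 0.096 and -0.033 for Ccng1, -0.0037 for Mdm2 and -0.14 for Trp53inp1, and also turned for Cdkn1a in BV- cells (-0.012) and the difference of effects of Phlda3 (-0.055), which was -0.017 with upper-quartile factors. Ccng1 between populations with NRF1 OE turned with library size alone (0.014), only the groups compared (0.020) and the replicate block (0.036). With 1 library left out, signs turned for Mdm2 at Ctrl (-0.033 to 0.090), between populations with NRF1 OE (-0.39 to 0.20) and for the difference of effects (-0.43 to 0.16), for Ccng1 between populations with NRF1 OE (-0.19 to 0.14) and for the difference (-0.077 to 0.26), for Trp53inp1 between populations at Ctrl (-0.29 to 0.091) and with NRF1 OE (-0.016 to 0.45), and for Phlda3 with NRF1 OE (-0.36 to 0.0061) and for the difference (-0.10 to 0.24).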

Other observations

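Among 9502 genes with a mean of at least 10 CPM, those whose log2 CPM followed Trp53 most closely over the 9 libraries were Tomm40, the channel of the mitochondrial import machinery (Pearson's r = 0.997), Rita1 (0.995) and Mybbp1a, a nucleolar protein (0.995). For Cdkn1a they were the kinase gene Wnk2 (0.974), Ghdc (0.968) and the co-repressor gene Tle3 (0.967). These are descriptions over libraries that share groups and GC trends. The transcripts of the 6 genes had 53.2% to 62.4% GC, beside 53.3% for Trp53 and 54.4% for Cdkn1a.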
